A study of Mus musculus with 32 samples.

Results

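The Wnt ligands, receptors and inhibitors described here are 49 mouse genes, listed by name as members of the pathway with earlier results of these data known, out of 55359 genes in each count table. They comprise 16 Wnt ligands, 12 receptors (10 Frizzled proteins with Lrp5 and Lrp6), 10 secreted inhibitors, 4 R-spondins, 3 R-spondin receptors, 2 ligases that remove receptors from the cell surface, and Axin2 and Lef1, which report signalling. All 49 were found in both tables, and 46 passed the filter on low counts in bone (Wnt3, Wnt7a and Rspo4 did not) and 48 in gingiva (Wnt2 did not). Poly(A) RNA had been sequenced from bone and gingiva of male wild-type C57BL/6J mice, an inbred laboratory strain, aged 9 weeks. LiTra mice carried a silk thread round the second upper left molar, a standard way to induce periodontitis, together with composite resin on the biting surface of that tooth, which overloads it. Li mice carried the silk thread alone, Tra mice the resin alone, and Co mice were untreated. Each group had 4 libraries per tissue, 32 in all. The thread, the resin and both together can thus be set against untreated tissue. The labels give no time between treatment and sampling and do not state that the libraries of a group came from separate animals, so a p-value here is set against a spread between libraries that may be technical.

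Wnt proteins are secreted lipid-modified ligands that bind Frizzled receptors. Together with Lrp5 or Lrp6 they stabilise β-catenin, which acts with LEF/TCF factors on target genes such as Axin2, while ligands such as Wnt5a act mostly through branches that do not need β-catenin. Sfrp proteins, Frzb and Wif1 bind the ligands, Dkk1 and Dkk2 act at the co-receptors, and Notum removes the lipid. R-spondins with Lgr receptors protect Frizzled proteins from Znrf3 and Rnf43. In bone the β-catenin branch favours bone formation, and in epithelia it helps to maintain proliferating cells.

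A bone library held 38163979 to 70793037 counts and a gingiva library 36913075 to 50740393, and the 49 genes took 0.0511% to 0.256% of the counts in bone and 0.114% to 0.147% in gingiva. The 10 keratinocyte markers summed to 33600 to 60100 CPM (counts relative to library size, after TMM scaling) in gingiva and 28.1 to 4470 CPM in bone, and 10 osteoblast and osteocyte markers to 8240 to 23900 CPM in bone and 839 to 2820 CPM in gingiva. Both tissue labels thus matched their markers. In 3 bone libraries (LiTra 1, Tra 3 and Co 3) the 10 most abundant genes, many of them transcripts of nasal glands, took 53.6%, 62.9% and 51.2% of the counts. In these 3 libraries 13 nasal gland and mucosa markers summed to 760000 to 881000 CPM. They were also high in bone Li 2, Co 4, Tra 1 and Li 4, with sums of 255000, 144000, 59300 and 25500 CPM. The remaining bone libraries had 42.6 to 5180 CPM. In these bulk samples, fewer cells of a type and less RNA per cell cannot be told apart. Values for each group are given for libraries 1 to 4 in that order. Differences are log2 ± SE with 4 libraries per group, and a gene is called where its adjusted p over all genes of the tissue is under 0.05.

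Sfrp2, Dkk3 and Wif1, all listed as secreted inhibitors, were among the 4 highest members in both untreated tissues. Per kilobase of transcript, the 4 highest members in Co bone were all of that list. Wif1, which binds Wnt proteins, led with 120.8 ± 40.2 CPM per kilobase (SD, n = 4), followed by Sfrp2 with 42.9 ± 6.05, Dkk3 with 37.2 ± 14.6 and Sfrp4 with 20.1 ± 5.64. Of these, Sfrp2 and Dkk3 did not differ beyond their spread. The highest ligand in Co bone was Wnt10b, which promotes bone formation in mice, at 11.3 ± 3.48 CPM per kilobase. In Co gingiva a ligand came first, Wnt4 with 37.1 ± 4.11 CPM per kilobase, followed by Sfrp2 with 33.3 ± 6.86, Dkk3 with 25.7 ± 6.67, Wif1 with 22.6 ± 5.48 and the epithelial ligand Wnt7b with 18.1 ± 3.37. Each of these 5 differed from its neighbour in that order by less than the larger of their SDs, except Sfrp2 from Dkk3. Wnt2, Wnt7a and Wnt9b were the lowest 3 members in both tissues, between 0.00365 and 0.0538 CPM per kilobase.

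Set directly against each other, Co bone and Co gingiva differed in 28 of the 49 genes, 13 higher and 15 lower in bone, where 53.6% of all 22559 genes tested were called, 27.2% higher and 26.4% lower. The members' share was thus close to that of all genes. The genes higher in bone included Sfrp4 (log2 difference 3.25 ± 0.49, adjusted p = 3.11e-06), Wif1 (2.41 ± 0.35, adjusted p = 1.85e-06), the co-receptor antagonist Dkk1 (4.69 ± 1.13, adjusted p = 0.001) and the signal enhancer Rspo2 (3.34 ± 0.79, adjusted p = 0.000856). Wnt2b, Wnt5b, Wnt10b, Fzd5, Fzd8, Sfrp5, Frzb, Rspo3 and Lef1 were also higher in bone. The replicate block ended the call of Sfrp5 (adjusted p = 0.149), as did limma-voom (0.287) and library totals (0.0708). It was also lost in 4 of 32 fits without 1 library, with adjusted p = 0.531 without Co 3 of bone and 0.0864, 0.0737 and 0.0969 without Co 2, Co 3 and Co 4 of gingiva. Rspo3 and Lef1 were not called without Co 3 of gingiva (adjusted p = 0.0527 and 0.0507). Lower in bone were Wnt4 (-3.80 ± 0.42, adjusted p = 2.13e-08), Wnt7b (-3.79 ± 0.44, adjusted p = 4.96e-08), Wnt5a (-2.19 ± 0.40, adjusted p = 4.40e-05) and Axin2 (-0.93 ± 0.24, adjusted p = 0.00163), along with Wnt3a, Wnt10a, Wnt11, Wnt16, Fzd6, Fzd10, Dkk2, Rspo4, Lgr4, Lgr6 and Znrf3. By role, 7 of the 10 ligands called were lower in bone, and 5 of the 6 secreted inhibitors called were higher there. With library totals in place of TMM scaling, which moved the median of all genes to 0.13, the split was 8 higher and 16 lower.

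**Figure D1:**
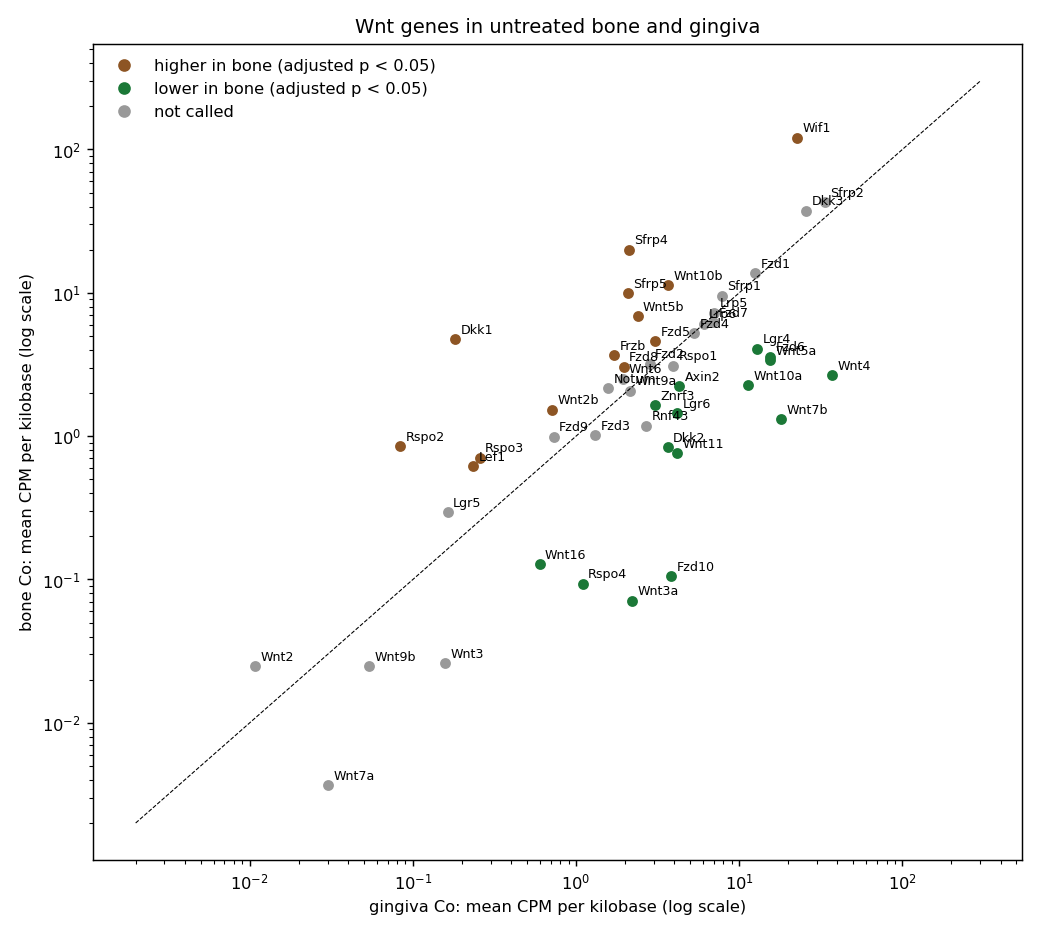
Mean level of each of the 49 genes in untreated bone (vertical axis) and untreated gingiva (horizontal axis), in CPM per kilobase of transcript on log scales (n = 4 libraries each), with the dashed line marking equal levels and colours marking genes called between the tissues. Wif1, Sfrp4 and Dkk1 sit above the line, and Wnt4, Wnt7b and Wnt3a below it.

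In gingiva the combination of thread and resin went with lower levels of many Wnt genes. In LiTra against Co gingiva, 20 of the 48 genes tested fell and 3 rose, where 22.9% of all genes tested were called, 11.5% lower and 11.4% higher. The members' median log2 difference was -0.52, against -0.01 for all genes. By role, 7 of 15 ligands, 5 of 12 receptors, 3 of 10 secreted inhibitors, 1 of 3 R-spondin receptors, both ligases and both signalling reporters fell, none of the 4 R-spondins was called, and those that rose were the ligand Wnt5a and the inhibitors Sfrp1 and Sfrp4.

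Among the ligands that fell, Wnt4 was the most abundant member of untreated gingiva. Wnt4 had 81.7, 62.2, 75.8 and 87.9 CPM in LiTra, 90.7, 121, 173 and 159 in Li, 158, 112, 145 and 154 in Tra and 147, 137, 162 and 176 in Co. Every LiTra value lay below every value of the other groups (LiTra against Co -1.02 ± 0.18, adjusted p = 0.00169). Wnt7b had 32.4, 20.2, 35.2 and 26.6 CPM in LiTra, 32.4, 27.2, 77.1 and 81.1 in Li, 89.95, 65.2, 76.6 and 98.2 in Tra and 87.6, 65.5, 102 and 98.8 in Co. LiTra did not overlap Tra or Co, Li 1 and 2 stood among the LiTra values, and Li 3 and 4 among those of Tra and Co (LiTra against Co -1.63 ± 0.31, adjusted p = 0.00267). Wnt10a, whose human form is mutated in people lacking teeth, had 9.1, 7.98, 12.5 and 11.6 CPM in LiTra, 14.6, 14.6, 22.8 and 25.4 in Li, 14.8, 11.5, 34.7 and 36.3 in Tra and 20.1, 31.9, 30.4 and 29.6 in Co. LiTra lay below Li and Co without overlap, and Tra 2 stood among the LiTra values (LiTra against Co -1.44 ± 0.33, adjusted p = 0.00709).

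Wnt10b had 2.03, 2.9, 6.7 and 2.25 CPM in LiTra, 1.55, 2.95, 3.81 and 4.09 in Li, 5.15, 6.66, 7.86 and 11.4 in Tra and 11.1, 13.2, 15.7 and 9.95 in Co. Both groups with the thread lay below Co without overlap, and their own ranges overlapped (LiTra against Co -1.85 ± 0.39, adjusted p = 0.00434). Wnt6, a ligand of epithelia, had 1.01, 1.17, 1.94 and 0.94 CPM in LiTra, 2.05, 1.66, 2.95 and 2.67 in Li, 3.13, 2.78, 7.49 and 5.53 in Tra and 3.98, 5.58, 4.15 and 3.28 in Co. LiTra lay below Tra and Co without overlap (LiTra against Co -1.74 ± 0.34, adjusted p = 0.00307). Wnt3a, a classical activator of β-catenin, had 3.19, 3.01, 5.71 and 3.14 CPM in LiTra, 5.64, 4.33, 4.47 and 4.27 in Li, 5.44, 4.05, 6.6 and 6.26 in Tra and 6.48, 6.3, 4.7 and 6.8 in Co. LiTra 3 stood among the Co values, and Wnt3a was no longer called in 10 of the 16 fits that left out 1 library, the highest adjusted p being 0.114 without LiTra 4 (LiTra against Co -0.69 ± 0.23, adjusted p = 0.0411). Wnt3, of the same subfamily, was low everywhere, with 0 in all 4 libraries of LiTra, 0, 0, 0 and 0.156 in Li, 0.148, 0.345, 0.76 and 0.33 in Tra and 0.704, 0.144, 0.12 and 0.979 in Co. Its 0 counts in LiTra stood against 77 counts over the Co libraries and 71 over the Tra libraries, at least 26.7-fold lower than Co and at least 22.8-fold lower than Tra when set against 3 counts over the group (adjusted p = 0.0104 and 0.0152).

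Wnt5a, a ligand that acts mostly without β-catenin, was the only ligand that rose in LiTra against Co gingiva. Wnt5a had 163, 145, 191 and 153 CPM in LiTra, 133, 105, 114 and 121 in Li, 115, 138, 119 and 130.4 in Tra and 85.7, 142, 134 and 118 in Co. The LiTra values lay above all Co values, the nearest being LiTra 2 and Co 2 (LiTra against Co 0.44 ± 0.14, adjusted p = 0.0314). The call was lost in 5 of the 16 fits without 1 library, with adjusted p up to 0.0957 without LiTra 3. Wnt11, another ligand of that kind, had 18.5, 20.2, 18.2 and 18.6 CPM in LiTra, 22.8, 18.1, 15.3 and 21.3 in Li, 11.9, 10.9, 12.4 and 17 in Tra and 12.7, 19.5, 17.9 and 18.3 in Co. It was higher in LiTra than in Tra without overlap (LiTra against Tra 0.53 ± 0.16, adjusted p = 0.0343), was not called against Co (0.14 ± 0.16, adjusted p = 0.581), and was lost against Tra in 7 of the 16 fits without 1 library, with adjusted p up to 0.0827 without Tra 1. The other 6 ligands tested, Wnt2b, Wnt5b, Wnt7a, Wnt9a, Wnt9b and Wnt16, were called in no comparison within gingiva. Wnt9a, the highest of these in LiTra, ranged over 5.63 to 15.1 CPM in LiTra and 6.95 to 7.24 in Co. Wnt5b ranged over 3.15 to 5.22 in LiTra and 4.63 to 7.72 in Co. Wnt2b ranged over 3.52 to 5.41 in LiTra and 2.61 to 3.47 in Co. Wnt2, which did not pass the filter, had at most 0.382 CPM in any gingiva library.

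Among the receptors, the co-receptor Lrp5 fell in LiTra while its paralog Lrp6 was not called. Lrp5, loss of which lowers bone mass in people, had 20.7, 25.1, 30.9 and 29.4 CPM in LiTra, 38.6, 71.4, 74.2 and 62.4 in Li, 40.2, 34.5, 74 and 89.6 in Tra and 67.6, 73, 62.5 and 70.4 in Co. LiTra lay below all the other groups without overlap (LiTra against Co -1.37 ± 0.27, adjusted p = 0.00314). Lrp6 ranged over 72.5 to 93 CPM in LiTra and 73.3 to 87.6 in Co (-0.05 ± 0.10, adjusted p = 0.776). Whether Lrp5 and Lrp6 differed in their response was not tested.

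Of the Frizzled receptors, Fzd7 had 14.3, 17.1, 16.4 and 16.7 CPM in LiTra, 15.5, 29.95, 30.8 and 27.3 in Li, 26.3, 23.6, 35.8 and 38.9 in Tra and 33.3, 29.4, 29.7 and 32.7 in Co. LiTra lay below Tra and Co without overlap, and Li 1 stood with the LiTra values (LiTra against Co -0.95 ± 0.19, adjusted p = 0.00351). Fzd9, which supports bone formation in mice, had 0.152, 0.391, 0.474 and 0.298 CPM in LiTra, 0.474, 1.23, 0.903 and 0.333 in Li, 2.14, 1.1, 0.695 and 1.2 in Tra and 1.41, 0.887, 3.04 and 1.3 in Co. It was low in all groups, and LiTra did not overlap Co (-2.32 ± 0.53, adjusted p = 0.00684). Fzd5 had 15.3, 14.2, 14.8 and 13.7 CPM in LiTra, 14.4, 17.9, 22.1 and 18.7 in Li, 18.1, 16.3, 18.9 and 23 in Tra and 17.8, 25.9, 19.3 and 21.3 in Co. LiTra lay below Co without overlap (-0.54 ± 0.15, adjusted p = 0.016), a call lost without Co 2 (adjusted p = 0.0522). Fzd10 had 8.84, 8.42, 6.44 and 10.3 CPM in LiTra, 11.5, 11.7, 15.1 and 12.4 in Li, 15.1, 9.85, 14.2 and 13 in Tra and 10.5, 14.5, 12.5 and 12.3 in Co. The LiTra and Co ranges nearly touched (-0.55 ± 0.17, adjusted p = 0.0281), and the call was lost in 6 of the 16 fits without 1 library, with adjusted p up to 0.0811 without LiTra 3.

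Fzd8 was called against Tra alone, with 8.18, 8.14, 10.9 and 9.01 CPM in LiTra, 11.6, 10.3, 13.9 and 13.1 in Li, 13.3, 10.7, 13.5 and 16.5 in Tra and 10.5, 13.6, 11.3 and 11.3 in Co. LiTra 3 lay within the Tra range (LiTra against Tra -0.57 ± 0.15, adjusted p = 0.0174, against Co -0.36 ± 0.15, adjusted p = 0.0981), and the call was lost without LiTra 1, LiTra 2 or Tra 4 (adjusted p = 0.0536, 0.0508 and 0.0604). Fzd6, the most abundant Frizzled gene of untreated gingiva per kilobase, ranged over 70.9 to 75.2 CPM in LiTra and 63.9 to 82.8 in Co (-0.02 ± 0.08, adjusted p = 0.892). Fzd1, Fzd2, Fzd3 and Fzd4 were called in no gingiva comparison either, with log2 differences of -0.10, -0.26, -0.38 and 0.31 for LiTra against Co.

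**Figure D2:**
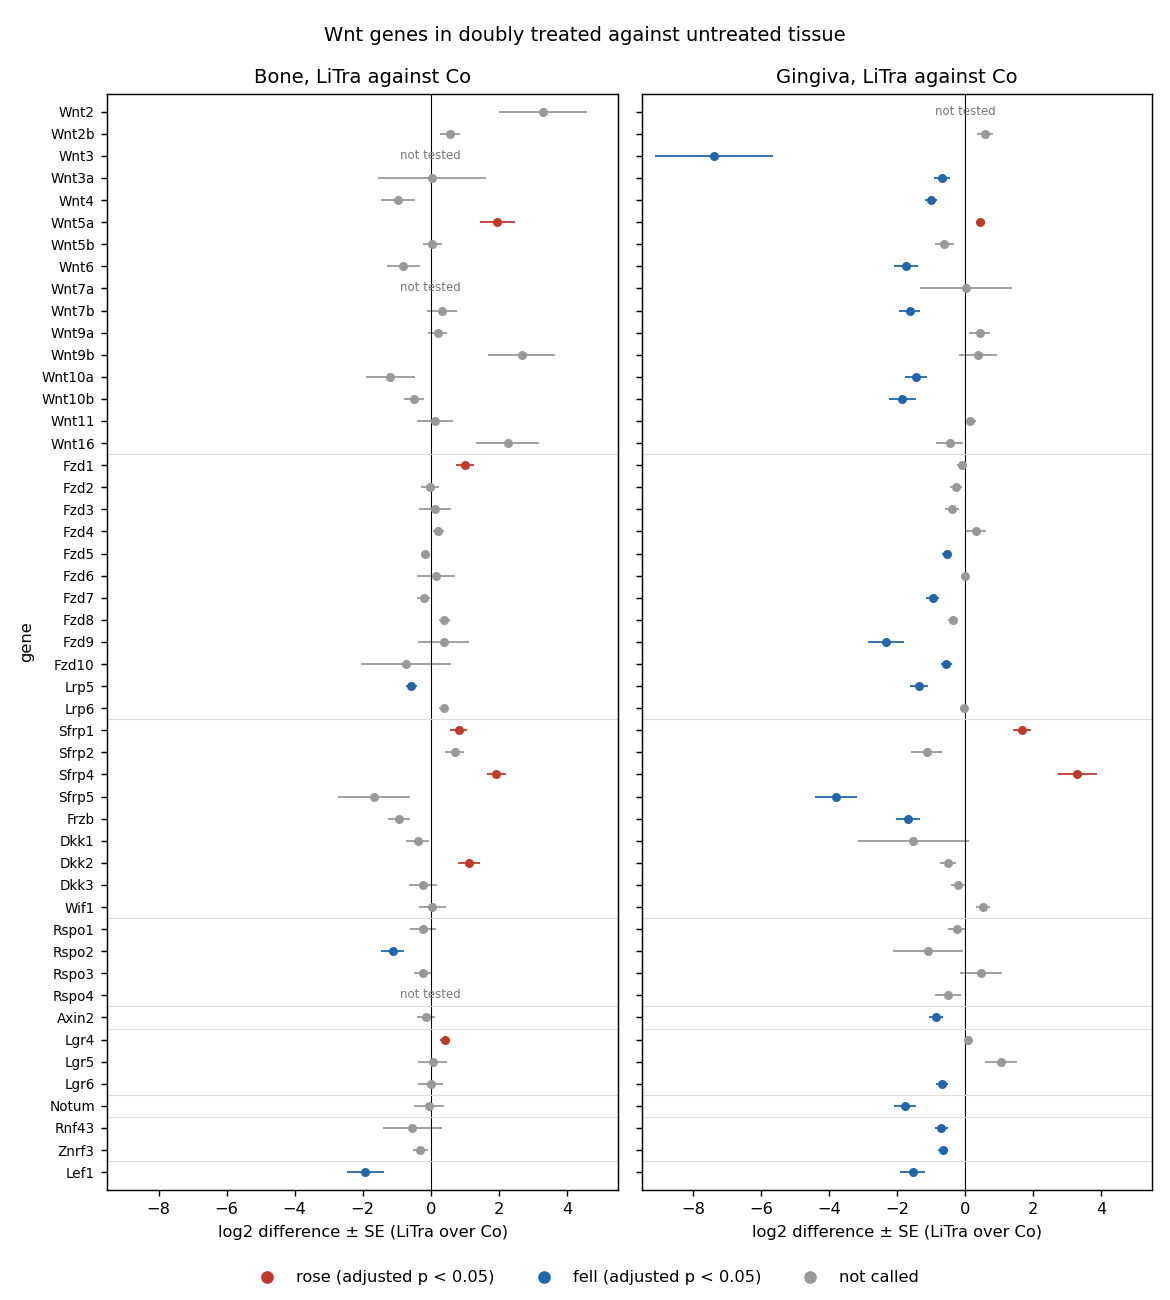
Log2 difference ± SE of LiTra against Co for every member tested, in bone (left) and gingiva (right), grouped by role and coloured by call. In gingiva most points lie left of 0. The called ones there are mainly ligands, receptors and secreted inhibitors, with the inhibitors Sfrp5, Frzb and Notum to the left. Sfrp4 and Sfrp1 lie to the right in both tissues. The fitted value of Wnt3 in gingiva is no bound, because all LiTra libraries are at 0.

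The secreted inhibitors moved in both directions. Sfrp4, a binder of Wnt proteins whose loss thins cortical bone in people, had 82.2, 111, 85.9 and 64.2 CPM in LiTra, 55.1, 113, 55.5 and 27.9 in Li, 21.1, 39.8, 6.38 and 5.02 in Tra and 10.3, 6.61, 8.92 and 9.34 in Co. Both groups with the thread lay above Co without overlap, and Tra spread widely, with Tra 1 and 2 above every Co library and Tra 3 and 4 below them (LiTra against Co 3.29 ± 0.57, adjusted p = 0.0016). Sfrp1 had 114, 119, 87.3 and 113 CPM in LiTra, 107, 146, 63.1 and 47.2 in Li, 38, 39.6, 41.1 and 44.1 in Tra and 33.7, 39.8, 31.5 and 31.4 in Co. LiTra and Li lay above all Tra and Co values (LiTra against Co 1.66 ± 0.26, adjusted p = 0.000786). Sfrp5, their relative, went the other way, with 0.405, 0.322, 0.118 and 0.275 CPM in LiTra, 0.924, 2.06, 1.98 and 2.36 in Li, 2.22, 1.81, 3.97 and 1.84 in Tra and 9.2, 2.01, 3.33 and 1.19 in Co. LiTra lay below all other groups without overlap, and Co 1 stood far above the other Co libraries (LiTra against Co -3.80 ± 0.61, adjusted p = 0.001).

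Frzb, an inhibitor of the same family first known from cartilage, had 1.52, 2.51, 1.42 and 1.44 CPM in LiTra, 1.85, 1.44, 1.78 and 2.89 in Li, 8.82, 3.23, 3.37 and 4.05 in Tra and 6.99, 3.95, 6.06 and 5.16 in Co. LiTra and Li lay below Tra and Co without overlap (LiTra against Co -1.68 ± 0.35, adjusted p = 0.00384). Notum, the enzyme that strips the lipid from Wnt proteins and is itself a target of the pathway, had 0.684, 1.52, 0.994 and 1.24 CPM in LiTra, 2.35, 1.7, 2.27 and 2.78 in Li, 1.63, 3.96, 4.21 and 3.32 in Tra and 4.95, 3.79, 2.9 and 3.49 in Co. LiTra lay below all other groups without overlap (LiTra against Co -1.77 ± 0.32, adjusted p = 0.00192). The 8 cartilage markers summed to 8.69 to 16.9 CPM in LiTra gingiva and 24.4 to 47.4 in Co, 2 of the 7 tested fell, and their part in the values of Frzb was not tested.

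Among the inhibitors with no call in gingiva, Sfrp2 spread most, with 10.8, 28.8, 73 and 17.9 CPM in LiTra, 25.4, 55.5, 58.7 and 55.4 in Li, 51.2, 59.7, 85.6 and 88.5 in Tra and 80.2, 79.8, 77 and 49.6 in Co (LiTra against Co -1.14 ± 0.45, adjusted p = 0.0814). Wif1 ranged over 66.8 to 90.5 CPM in LiTra and 43.7 to 70.8 in Co (0.52 ± 0.20, adjusted p = 0.0678). Dkk3 ranged over 54.8 to 103 in LiTra and 59.0 to 111 in Co, Dkk2 over 7.63 to 11.3 in LiTra and 10.4 to 17.4 in Co. Dkk1 was at most 1.46 CPM in any gingiva library.

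**Figure D3:**
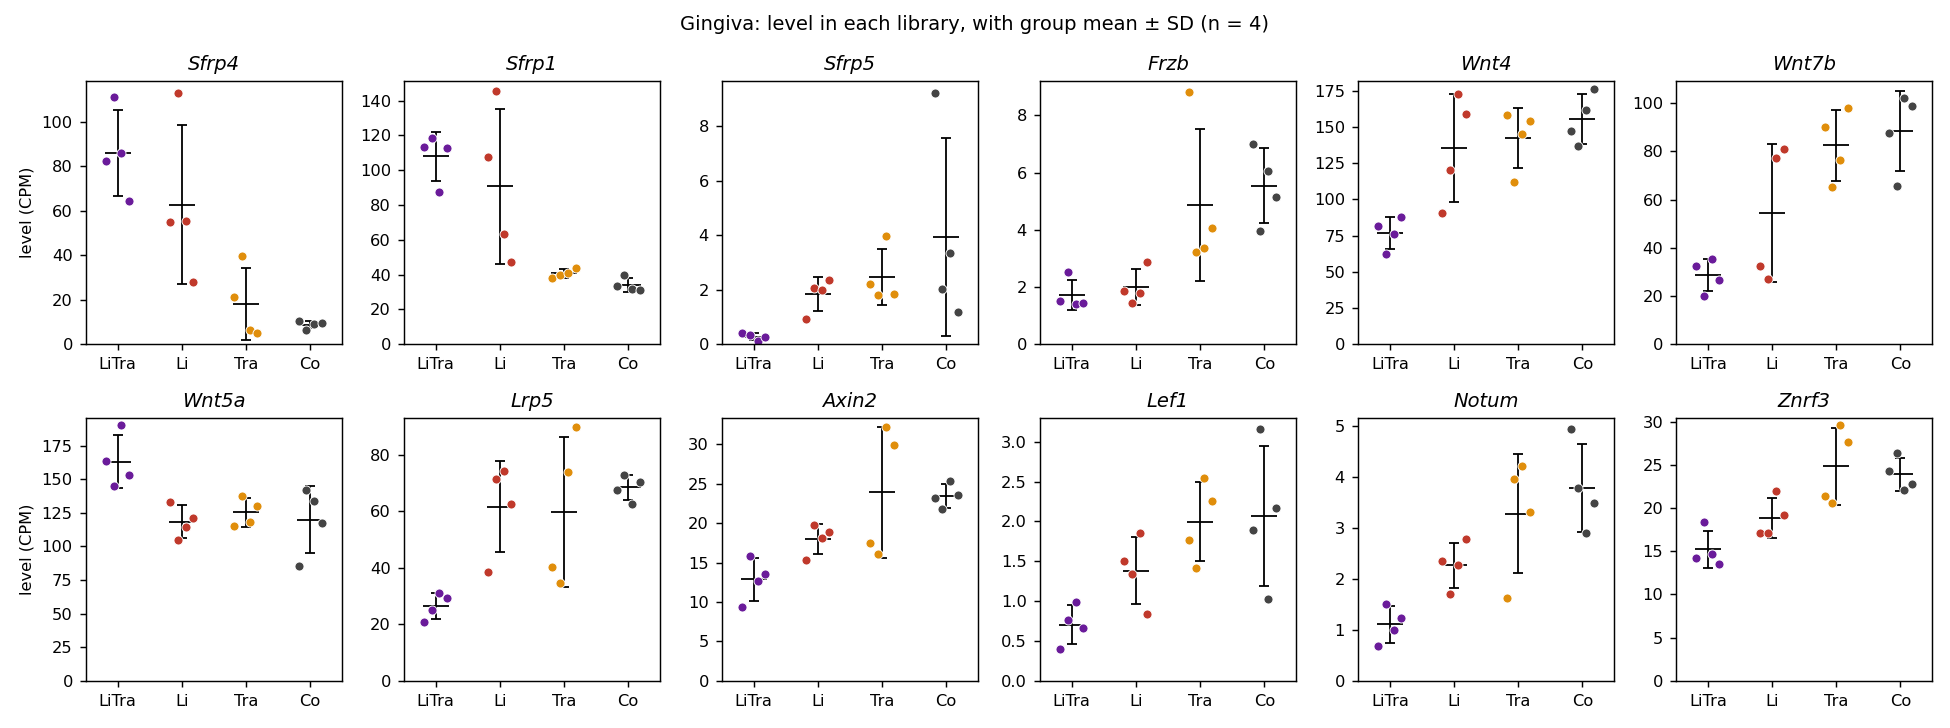
CPM per gingiva library (points) with the mean and SD of each group (n = 4) for 12 members, with LiTra, Li and Tra left of Co. Sfrp4 and Sfrp1 are high in LiTra and Li, and Wnt4, Lrp5, Notum and Znrf3 are lowest in LiTra, without overlap with Co.

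Both genes that report signalling fell in LiTra gingiva. Axin2, a feedback inhibitor that β-catenin induces, had 9.32, 15.9, 12.6 and 13.6 CPM in LiTra, 15.4, 19.7, 18.1 and 18.9 in Li, 17.5, 16.1, 32.2 and 29.9 in Tra and 23.1, 21.8, 25.4 and 23.6 in Co. LiTra did not overlap Tra or Co, and LiTra 2 stood just above the lowest Li library (LiTra against Co -0.87 ± 0.21, adjusted p = 0.00916, LiTra against Tra -0.89 ± 0.21, adjusted p = 0.00949). Lef1, a nuclear partner of β-catenin, had 0.405, 0.759, 0.994 and 0.665 CPM in LiTra, 1.5, 1.34, 1.86 and 0.844 in Li, 1.77, 1.42, 2.54 and 2.26 in Tra and 1.89, 3.16, 1.03 and 2.17 in Co. LiTra lay just under the lowest Co library and did not overlap Tra (LiTra against Co -1.54 ± 0.37, adjusted p = 0.00909). Both ligases that remove Frizzled proteins, which are targets of the pathway as well, fell too. Znrf3 had 14.2, 18.4, 14.7 and 13.6 CPM in LiTra, 17.1, 17.1, 22 and 19.2 in Li, 21.4, 20.6, 29.6 and 27.6 in Tra and 24.3, 26.4, 22.1 and 22.8 in Co. Rnf43 had 8.82, 11.7, 11.5 and 11.2 CPM in LiTra, 13.5, 11.1, 18.9 and 15.9 in Li, 13.6, 16.5, 22.6 and 21.1 in Tra and 15.6, 16.9, 16.6 and 21.2 in Co. In both genes LiTra lay below Tra and Co without overlap (Znrf3 -0.65 ± 0.14, adjusted p = 0.00442, Rnf43 -0.70 ± 0.19, adjusted p = 0.0146).

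Of the R-spondin receptors, Lgr6, which marks stem cells of skin, had 14.9, 19.96, 19.7 and 16.8 CPM in LiTra, 22, 19.5, 26.9 and 27.7 in Li, 29.2, 26.4, 40.7 and 42.6 in Tra and 22.9, 34.6, 26.3 and 30.5 in Co. LiTra lay below Tra and Co without overlap (-0.68 ± 0.18, adjusted p = 0.0136). Lgr4 ranged over 68.9 to 91 CPM in LiTra and 68.1 to 86.4 in Co (0.08 ± 0.11, adjusted p = 0.644), and Lgr5 over 1.6 to 7.22 in LiTra and 1.19 to 2.08 in Co (1.05 ± 0.46, adjusted p = 0.114). The R-spondins were low in gingiva. Rspo1 ranged over 4.13 to 8.97 CPM in LiTra and 6.51 to 9.37 in Co, Rspo4 over 1.26 to 2.63 in LiTra and 2.25 to 2.97 in Co, and Rspo2 and Rspo3 were at most 2.36 CPM in any library.

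Promoter windows are shown for some of the genes that fell together, because LEF/TCF factors bind DNA at a short motif. Windows from 250 bases before to 50 after each gene start, from RefSeq on GRCm38.p6, were searched on both strands for CTTTGNN with A or T at each N, 4 spellings of 1 motif, of which only 1 can match at a given place on a strand. Of the 20 genes that fell in LiTra gingiva, 15 had a window and 3 held a match, against 18.9% of all genes in the table and 16.9% of its 32851 windows. The windows of those 3 genes follow, with the match in capitals, and that of Axin2, which held none. They lie at chr1:59481897-59482196, + strand, for Fzd7, at chr3:131156044-131156343, + strand, for Lef1 (1 of its 4 windows), at chr11:103773925-103774224, + strand, for Wnt3, and at chr11:108920099-108920398, + strand, for Axin2.
Fzd7: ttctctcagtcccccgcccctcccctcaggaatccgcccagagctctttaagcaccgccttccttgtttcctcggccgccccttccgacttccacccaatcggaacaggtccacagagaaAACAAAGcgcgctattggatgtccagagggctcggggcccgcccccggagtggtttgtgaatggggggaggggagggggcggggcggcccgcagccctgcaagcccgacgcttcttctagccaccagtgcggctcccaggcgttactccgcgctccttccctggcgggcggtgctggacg
Lef1: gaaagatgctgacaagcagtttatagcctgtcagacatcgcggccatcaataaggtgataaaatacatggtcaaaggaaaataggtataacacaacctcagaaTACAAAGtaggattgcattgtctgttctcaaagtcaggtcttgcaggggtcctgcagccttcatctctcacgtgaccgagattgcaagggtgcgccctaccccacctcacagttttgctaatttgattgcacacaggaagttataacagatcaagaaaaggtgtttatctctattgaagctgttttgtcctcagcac
Wnt3: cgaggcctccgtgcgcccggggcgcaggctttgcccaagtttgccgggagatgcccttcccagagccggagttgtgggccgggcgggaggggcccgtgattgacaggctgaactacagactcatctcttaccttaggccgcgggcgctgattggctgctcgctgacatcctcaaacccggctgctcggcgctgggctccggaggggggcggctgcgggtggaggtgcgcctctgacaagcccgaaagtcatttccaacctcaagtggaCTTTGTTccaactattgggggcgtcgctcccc
Axin2: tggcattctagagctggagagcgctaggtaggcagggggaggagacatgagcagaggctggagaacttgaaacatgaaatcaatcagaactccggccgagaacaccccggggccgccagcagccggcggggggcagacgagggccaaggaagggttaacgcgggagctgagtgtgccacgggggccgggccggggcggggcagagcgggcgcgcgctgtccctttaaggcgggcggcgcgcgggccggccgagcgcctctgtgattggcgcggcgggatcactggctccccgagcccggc
The match began 130 bases before the gene start in Fzd7, 147 bases before it in Lef1 and 18 bases after it in Wnt3. In all, 6 of the 32 members with a window held a match, Dkk1, Wnt5b and Wnt11 being the others.

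Several other measures moved with these gingiva results. The keratinocyte markers summed to 43400 to 49500 CPM in LiTra and 33600 to 46400 in Co, with 2 of 10 higher (Krt14 and Trp63 of the basal layer) and 4 lower (Krt1 and Krt10 of the upper layers, Cdh1 and Dsp). The endothelial markers summed to 294 to 408 CPM in LiTra and 191 to 221 in Co, with 6 of 8 higher and 1 lower, Vwf (log2 -1.32, adjusted p = 0.027 by edgeR). All 8 osteoclast markers were higher, with sums of 842 to 1360 CPM in LiTra and 159 to 231 in Co. Neutrophil markers summed to 2040 to 8900 CPM in LiTra and 139 to 833 in Co, with 3 of 9 higher (S100a8, S100a9 and Cxcr2) and 0 lower. Of 8 skeletal muscle markers 4 were lower, with sums of 85 to 368 CPM in LiTra and 127 to 2850 in Co. Of 10 fibroblast markers 2 were higher, Pdgfra and Lum, with sums of 5160 to 7750 CPM in LiTra and 2670 to 4900 in Co. The osteoblast and osteocyte markers moved both ways, with sums of 1290 to 2260 CPM in LiTra and 1040 to 2380 in Co. Ibsp, Spp1 and Pdpn were higher, Bglap, Sp7, Alpl and Phex were lower, and Dmp1, Mepe and Col1a1 were not called. The members were richer in G and C than other genes, with a median transcript GC content of 55.2% against 50.4%. In LiTra against Co the median of all 4028 genes with 55% to 60% GC was -0.16 and that of the 830 genes above 60% was -0.33. With each library's trend on GC content removed, an alternative chosen after seeing the data, 17 members fell and 5 rose. The calls of Wnt3a, Fzd5 and Fzd10 ended (adjusted p = 0.0901, 0.0627 and 0.0864). The decreases still called became smaller, except those of Frzb, Lef1 and Wnt3. Among them, Wnt10a went from -1.44 to -0.975 and Wnt6 from -1.74 to -1.33. Wnt7b went from -1.63 to -1.37 and Axin2 from -0.865 to -0.685. The members' median with the trend removed is not given here. The part of cell makeup in the members' values was not tested.

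Against Tra gingiva, LiTra gingiva differed in 22 members, 19 that fell and 3 that rose, where 18.8% of all genes tested were called, 9.36% higher and 9.44% lower. The members' median was -0.57, against -0.01 for all genes. With library totals in place of TMM, which put the median of all genes at 0.13, these were 16 and 5. The comparisons with Tra and with Co share the LiTra libraries. Those that fell were the genes named above other than Wnt3a and Fzd5, with Fzd8 in addition, and those that rose were Sfrp4 (2.25 ± 0.55, adjusted p = 0.0115), Sfrp1 (1.41 ± 0.25, adjusted p = 0.00278) and Wnt11. Apart from Wnt3, the largest decreases against Tra were those of Sfrp5 (-3.12 ± 0.60, adjusted p = 0.00367), Fzd9 (-1.95 ± 0.53, adjusted p = 0.0194) and Wnt6 (-1.90 ± 0.35, adjusted p = 0.00289). Wnt10b overlapped between the groups and was lost in 13 of the 16 fits without 1 library, with adjusted p up to 0.14 without Tra 4 (-1.16 ± 0.38, adjusted p = 0.0464). Its call was also lost with the GC trend removed (adjusted p = 0.0639). Wnt10a, Fzd9 and Fzd10 were lost in 4, 3 and 3 of the 16 fits without 1 library, with adjusted p up to 0.0628 without Tra 4, 0.0648 without Tra 1 and 0.0629 without Tra 1.

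The thread alone gave fewer calls. In Li against Co gingiva, 4 members were called where 7.49% of all genes tested were, 5.19% higher and 2.3% lower, and the members' median was -0.22, against 0 for all genes. Sfrp4 (2.84 ± 0.56, adjusted p = 0.00905) and Sfrp1 (1.41 ± 0.25, adjusted p = 0.0058) rose, and Wnt10b (-2.01 ± 0.39, adjusted p = 0.00864) and Frzb (-1.48 ± 0.34, adjusted p = 0.0203) fell. Frzb lost its call without Li 1, Li 2, Co 1 or Co 3 (adjusted p = 0.0554, 0.0706, 0.0679 and 0.0538). LiTra against Tra shares no library with Li against Co, and both add the thread. Of the 19 genes that fell in the first, 17 had a negative difference in the second, Fzd8 and Fzd10 being the exceptions. The median of the 19 there was -0.53, against -0.22 for all members tested, which thus leaned the same way. The 3 that rose in the first all had a positive difference in the second. How often all genes called in the first had the same direction in the second was not counted.

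The resin alone, and its addition to the thread, gave no call in edgeR's test. In Tra against Co gingiva 0 of 48 members were called, where 0% of all genes tested were. At an unadjusted p under 0.05 stood 3 of the 48 members and 1323 of all 20143 genes tested. The lowest adjusted p of a member was 0.5, for Wif1, and the members' median was 0. DESeq2 and limma-voom called 0 as well. In LiTra against Li gingiva 0 were called, where 0.0844% of all genes were, 0.0248% higher and 0.0596% lower. Here 19 of the 48 members had an unadjusted p under 0.05, as had 3736 of all 20143 genes tested. DESeq2 called 8 members and limma-voom 2. The counts of all genes called by these 2 tests are not given here, so theirs are not read as particular to the members. The members' median was -0.33, against -0.01 for all genes. Among the members the lowest adjusted p was that of Wnt4 (-0.82 ± 0.18, adjusted p = 0.0654), whose libraries did not overlap between these groups. The interaction, the effect of the thread with resin minus its effect without, was called in 0 members and 0% of all genes by edgeR, and in 0 members by DESeq2 and limma-voom. Its median over the members was -0.46, against -0.03 for all genes. At an unadjusted p under 0.05 in edgeR's test stood 8 members and 2289 of all 20143 genes tested. The lowest adjusted p of a member was 0.318, for Fzd8.

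In bone, the inhibitor Sfrp4 had the lowest adjusted p of the members. In LiTra against Co bone, 9 of the 46 genes tested were called, 6 that rose and 3 that fell, where 16.9% of all genes tested were called, 8.29% higher and 8.64% lower. The members' median log2 difference was 0.05, against -0.01 for all genes. The ligand Wnt5a, the receptor Fzd1, the inhibitors Sfrp1, Sfrp4 and Dkk2 and the R-spondin receptor Lgr4 rose, and the co-receptor Lrp5, the enhancer Rspo2 and the nuclear factor Lef1 fell. With library totals alone in place of TMM scaling, no member was called in bone. With no filter on low counts, the LiTra against Co calls of Sfrp1, Dkk2, Rspo2 and Lgr4 were lost.

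Sfrp4 had 256, 472, 238 and 314 CPM in LiTra, 328, 231, 269.6 and 345 in Li, 161, 196, 78.3 and 145 in Tra and 69.6, 119, 74.1 and 73.2 in Co. LiTra and Li lay above all Tra and Co values, and Tra 1, 2 and 4 lay above every Co library (LiTra against Co 1.93 ± 0.29, adjusted p = 0.000775, Li against Co 1.80 ± 0.29, adjusted p = 0.00496). Sfrp1 had 61.6, 92.5, 75.6 and 65.2 CPM in LiTra, 56.8, 40.9, 66.1 and 104 in Li, 52.8, 52.9, 81.2 and 89.9 in Tra and 42, 46.7, 32.9 and 45.6 in Co. LiTra lay above Co without overlap and overlapped Li and Tra (LiTra against Co 0.82 ± 0.26, adjusted p = 0.0425), a call lost in 9 of the 16 fits without 1 library, with adjusted p up to 0.131 without LiTra 2. The call was also lost in the fit without LiTra 1, Tra 3 and Co 3, the libraries led by nasal gland transcripts. Dkk2, an antagonist at the co-receptors, had 6.35, 7.57, 4.22 and 8.77 CPM in LiTra, 5.49, 5.77, 6.44 and 7.93 in Li, 3.01, 5.06, 2.43 and 3.79 in Tra and 4.53, 3.63, 1.59 and 2.63 in Co. LiTra 3 lay below Co 1 (LiTra against Co 1.12 ± 0.33, adjusted p = 0.0299), and the call was lost without LiTra 2, LiTra 4, Co 3 or Co 4 (adjusted p = 0.0796, 0.0868, 0.0631 and 0.0941).

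Wnt5a had 69, 167, 108 and 60.8 CPM in LiTra, 43.7, 27.8, 90.9 and 115 in Li, 33.9, 41.8, 32.3 and 51.6 in Tra and 51.2, 22.2, 10.5 and 20.4 in Co. LiTra lay above Co without overlap, and LiTra 2 was the highest library (LiTra against Co 1.95 ± 0.51, adjusted p = 0.0171). The call was lost without LiTra 2 or Co 4 (adjusted p = 0.0625 and 0.06). Fzd1, a receptor abundant in bone, had 76.9, 141, 118 and 125 CPM in LiTra, 87.2, 85.2, 92.1 and 166 in Li, 76.9, 83.3, 63.0 and 93.9 in Tra and 68.2, 66.6, 34 and 60.9 in Co. LiTra and Li lay above Co without overlap, and Tra overlapped all groups (LiTra against Co 1.0 ± 0.26, adjusted p = 0.0177), with the call lost without LiTra 2 (adjusted p = 0.0601). Lgr4 had 27.3, 35.4, 31.7 and 34.7 CPM in LiTra, 21.9, 29.4, 23.7 and 27.3 in Li, 32.9, 31.4, 33.1 and 25 in Tra and 22, 29.6, 24 and 21.1 in Co. LiTra overlapped Co at LiTra 1 (0.42 ± 0.14, adjusted p = 0.0497), and the call was lost in 11 of the 16 fits without 1 library, with adjusted p up to 0.149 without Co 4, and with the GC trend removed (adjusted p = 0.0834).

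Lrp5 had 45.6, 44.3, 54 and 47.2 CPM in LiTra, 48.8, 59.9, 49.4 and 66.8 in Li, 53.5, 68.1, 90.03 and 70.5 in Tra and 58, 74.9, 61.9 and 88.7 in Co. LiTra lay below Co without overlap (LiTra against Co -0.57 ± 0.17, adjusted p = 0.0296), a call lost in 5 of the 16 fits without 1 library, with adjusted p up to 0.127 without Co 4, and with the GC trend removed (adjusted p = 0.06). Lef1 had 0.709, 2, 1.95 and 1.06 CPM in LiTra, 3.05, 2.29, 4.96 and 2.53 in Li, 4.32, 6.5, 0.642 and 4.57 in Tra and 5.17, 5.66, 3.93 and 7.04 in Co. All LiTra values lay below the lowest Co value, and Tra 3 stood with LiTra (LiTra against Co -1.92 ± 0.54, adjusted p = 0.0244), with the call lost without LiTra 1, LiTra 4 or Co 4 (adjusted p = 0.063, 0.0693 and 0.0665). Rspo2 had 2.13, 1.63, 1.95 and 2.32 CPM in LiTra, 4.48, 2.05, 1.63 and 1.29 in Li, 4.1, 3.56, 3.72 and 4.84 in Tra and 5.65, 3.87, 3.41 and 4.5 in Co. LiTra lay below Tra and Co without overlap (LiTra against Co -1.12 ± 0.33, adjusted p = 0.0332), and the call was lost in 7 of the 16 fits without 1 library, with adjusted p up to 0.0993 without LiTra 2.

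Axin2, which fell in gingiva, was not called in bone, with 10.8, 11.5, 11.6 and 10.8 CPM in LiTra, 8.44, 10.4, 11.1 and 18.8 in Li, 10.2, 14.4, 21.8 and 11.4 in Tra and 13.9, 9.83, 14.1 and 11.7 in Co (LiTra against Co -0.15 ± 0.26, adjusted p = 0.785). Its LiTra values were the closest together and lay inside the Co range. Lef1 is also expressed by immature B lymphocytes, whose 8 markers all fell in LiTra against Co bone and summed to 32.6 to 64.3 CPM in LiTra and 264 to 418 in Co. Osteoclast markers summed to 5920 to 10100 CPM in LiTra and 2440 to 4710 in Co, with 6 of 8 higher. Fibroblast markers summed to 14700 to 25900 CPM in LiTra and 7050 to 18400 in Co, with 1 of 10 called, Lum, which was higher. Osteoblast and osteocyte markers summed to 15400 to 23900 CPM in LiTra and 8240 to 22700 in Co. Of these, Ibsp, Spp1 and Pdpn were higher, Bglap was lower and the others were not called. All 8 erythroid markers were lower, with sums of 1710 to 5930 CPM in LiTra and 22800 to 45300 in Co. Neutrophil markers summed to 1680 to 5850 CPM in LiTra and 9140 to 11900 in Co, with 3 of 9 lower (Ly6g, Mmp8 and Camp) and 0 higher. The part of these cell types in the members' values was not tested.

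**Figure D4:**
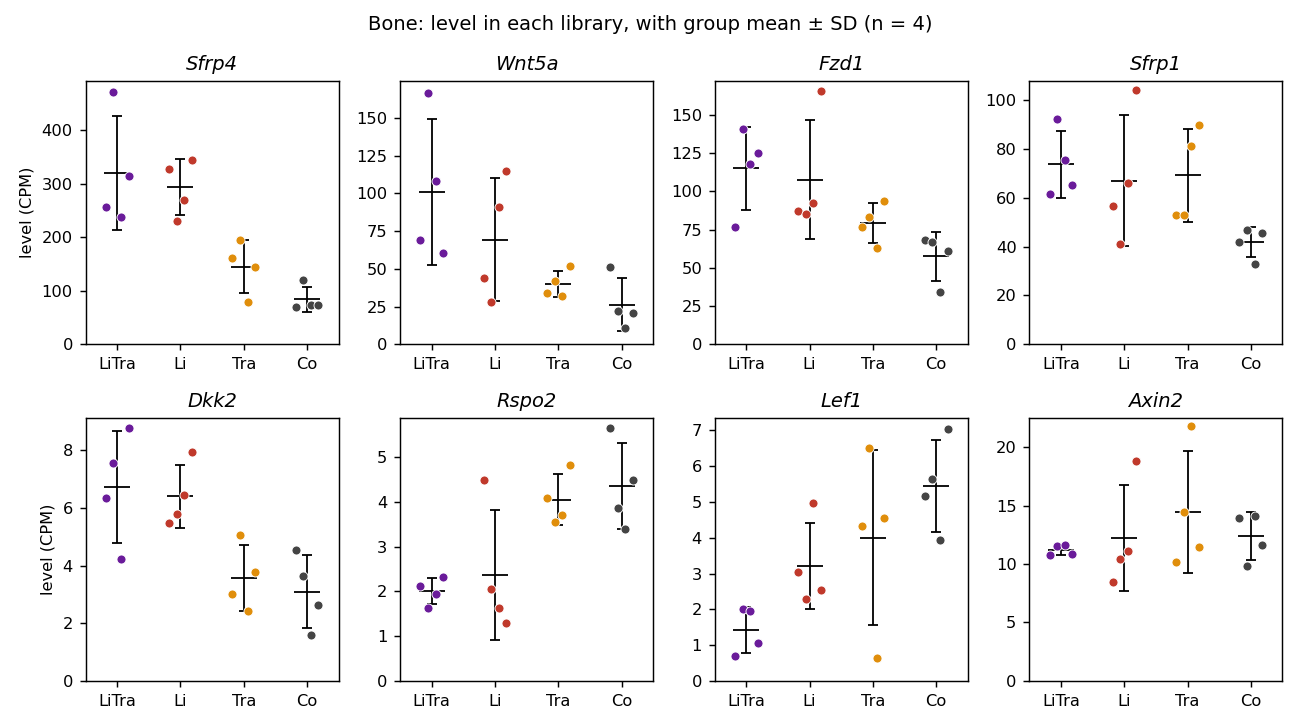
CPM per bone library (points) with the mean and SD of each group (n = 4) for 8 members, with LiTra, Li and Tra left of Co. Sfrp4 is high in LiTra and Li, Wnt5a and Fzd1 are higher in LiTra than in Co, Lef1 and Rspo2 are lower, and Axin2 overlaps between all groups.

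The members below were called in no comparison within bone. Wif1, the most abundant member of Co bone per kilobase, ranged over 139 to 468 CPM in LiTra and 175 to 413 in Co (0.05 ± 0.40, adjusted p = 0.961). Sfrp2 ranged over 83.7 to 180.2 in LiTra and 77.6 to 104 in Co (0.70 ± 0.27, adjusted p = 0.0932). Dkk1 ranged over 6.45 to 13.9 in LiTra and 6.18 to 15.9 in Co (-0.39 ± 0.34, adjusted p = 0.503). Frzb ranged over 4.22 to 7.28 CPM in LiTra and 9.84 to 16.5 in Co (-0.94 ± 0.32, adjusted p = 0.0568), without overlap and with an adjusted p just above the threshold. Among ligands, Wnt10b ranged over 19.1 to 40.4 CPM in LiTra and 22.3 to 47.5 in Co (-0.49 ± 0.30, adjusted p = 0.302). Wnt16, which protects cortical bone in mice, ranged over 1.08 to 4.57 CPM in LiTra and 0 to 1.55 in Co (2.26 ± 0.93, adjusted p = 0.114). Wnt2, Wnt2b, Wnt3a, Wnt4, Wnt5b, Wnt6, Wnt7b, Wnt9a, Wnt9b, Wnt10a and Wnt11, the receptors Fzd2, Fzd3, Fzd4, Fzd6, Fzd7, Fzd8, Fzd9, Fzd10 and Lrp6, and Sfrp5, Dkk3, Notum, Rspo1, Rspo3, Lgr5, Lgr6, Rnf43 and Znrf3 had adjusted p-values above 0.05 in every bone comparison.

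Of the other bone comparisons, Li against Co called 2 members, where 3.51% of all genes tested were called, 2.66% higher and 0.849% lower. Sfrp4 rose, as given above, and Fzd5 fell, with 24.7, 27.3, 31 and 29.8 CPM in LiTra, 23.1, 22.4, 26 and 24.5 in Li, 26.9, 28.3, 25.2 and 31.4 in Tra and 31.3, 35.1, 27.7 and 33.1 in Co. Li lay below Co without overlap (-0.41 ± 0.10, adjusted p = 0.0426), a call lost in 12 of the 16 fits without 1 library, with adjusted p up to 0.143 without Co 4, with the GC trend removed (adjusted p = 0.0526) and with the replicate number as a block (adjusted p = 0.0645). LiTra against Tra called 1 member, Sfrp4 (1.14 ± 0.28, adjusted p = 0.0293), where 5.56% of all genes tested were called, 3.07% higher and 2.49% lower, and this call was lost without LiTra 2, LiTra 4, Tra 1 or Tra 4 (adjusted p = 0.111, 0.0686, 0.0534 and 0.081). Tra against Co, LiTra against Li and the interaction called 0 of 46 members and 0% of all genes in edgeR's test. At an unadjusted p under 0.05 in that test stood 5, 3 and 1 of the 46 members in these comparisons. Of all 21205 genes tested, 2023, 1352 and 644 stood there. DESeq2 and limma-voom called 0 members in each.

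Several genes had the same direction in both tissues, which share no library but may share mice. Wnt5a, Sfrp1 and Sfrp4, which rose in LiTra against Co gingiva, all rose in bone, with the lost calls of Wnt5a and Sfrp1 given above. Of the 20 genes that fell in gingiva, 19 were tested in bone, where 16 had a negative difference, the exceptions being Wnt3a, Wnt7b and Fzd9. Their median in bone was -0.49, and 2 were called, Lrp5 and Lef1. Over all 46 members tested in bone, 22 had a negative difference. Of all genes tested there, 8.29% were called higher and 8.64% lower. How often all genes called in gingiva had the same direction in bone was not counted. The agreement is therefore not read as particular to the members.

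A test of the difference between tissues called 6 members for the LiTra effect, bone minus gingiva, where 12.3% of all genes tested were called, 5.59% higher and 6.68% lower. The members' median was 0.55, against 0.03 for all genes. These were Wnt7b (1.95 ± 0.56, adjusted p = 0.0218), Fzd1 (1.11 ± 0.32, adjusted p = 0.0229), Fzd8 (0.78 ± 0.21, adjusted p = 0.0175), Sfrp2 (1.85 ± 0.55, adjusted p = 0.0268), Dkk2 (1.62 ± 0.41, adjusted p = 0.0113) and Notum (1.72 ± 0.55, adjusted p = 0.0387), all with the more positive effect in bone. With library totals in place of TMM none of the 6 was called (adjusted p from 0.234 for Wnt7b to 0.587 for Fzd8). Wnt7b and Notum fell in gingiva, and Fzd1 and Dkk2 rose in bone. Sfrp2 and Fzd8 were called against Co in neither tissue. Notum lost its call in 12 of the fits without 1 library, with adjusted p up to 0.107 without LiTra 4 of bone. Sfrp2 lost it in 5, with adjusted p up to 0.0653 without LiTra 4 of gingiva, Fzd1 in 2, with up to 0.0594 without LiTra 2 of bone, and Wnt7b in 1, without Co 4 of bone (0.0517). For the Li effect 1 member was called, Dkk2 (1.77 ± 0.42, adjusted p = 0.0266), where 2.04% of all genes tested were called, 1.36% higher and 0.683% lower. Its call was lost in 5 fits without 1 library, with adjusted p up to 0.0803 without Li 2 of gingiva, and with library totals. Axin2, called in gingiva and not in bone, was not called in either test of the difference.

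Other genes of the pathway outside the 49 were counted by lists. Over all genes tested in LiTra against Co, 11.4% were higher and 11.5% lower in gingiva, and 8.29% were higher and 8.64% lower in bone. Lists of 6 to 24 genes give coarse shares beside these, and no list was tested as a set. In LiTra against Co gingiva, 10 of 24 intracellular genes fell and 0 rose, among them Tle3, a co-repressor of LEF/TCF factors (-0.62 ± 0.11, adjusted p = 0.00157), the kinase Csnk1e (-0.76 ± 0.15, adjusted p = 0.00277) and Amer1, a scaffold of β-catenin destruction (-0.41 ± 0.10, adjusted p = 0.0085). In bone 5 of these 24 fell, including Tle3 (-0.63 ± 0.08, adjusted p = 0.000427) and Dvl2, which relays the signal from Frizzled proteins (-0.49 ± 0.10, adjusted p = 0.00501), and 1 rose. Of 14 feedback and target genes, 5 fell and 4 rose in gingiva, where the cell-cycle gene Ccnd1 fell (-1.02 ± 0.19, adjusted p = 0.00236) and the cell surface receptor gene Cd44 (0.67 ± 0.10, adjusted p = 0.000546) rose. In bone 0 fell and 1 rose, Nfatc1, a factor that osteoclasts also need (0.72 ± 0.19, adjusted p = 0.0193).

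Of the genes for Wnt secretion and other receptors, 3 of 15 fell and 1 rose in gingiva, including Lrp4 (-0.78 ± 0.12, adjusted p = 0.000748) and Reck (-0.82 ± 0.22, adjusted p = 0.0143) among those that fell. In bone 3 of 16 rose and 0 fell, including the receptor Ryk (0.60 ± 0.13, adjusted p = 0.00699). Of 14 genes of the polarity and calcium branches, 3 fell and 4 rose in gingiva. Those that fell were Daam1 (-0.82 ± 0.16, adjusted p = 0.00304), Daam2 (-0.91 ± 0.21, adjusted p = 0.00716) and Vangl2 (-0.75 ± 0.20, adjusted p = 0.0152), and among those that rose was Invs (0.59 ± 0.14, adjusted p = 0.00681). In bone 2 fell, Daam1 (-0.66 ± 0.18, adjusted p = 0.0213) and the polarity protein gene Vangl2 (-0.74 ± 0.18, adjusted p = 0.0135). Of a list of further secreted inhibitors, 1 of 7 rose in bone, Cthrc1. Cthrc1 is known mainly as a secreted cofactor that stabilises Wnt proteins on Frizzled receptors and Ror2 in the polarity branch. It was higher in LiTra (log2 difference 2.31 ± 0.30, adjusted p = 0.000415), at 85.7 ± 27.1 CPM in LiTra and 17.3 ± 2.81 in Co (SD, n = 4 each). In gingiva 0 of 6 genes of this list were called. Sost, the inhibitor that osteocytes secrete, averaged 16.4 ± 12.4 CPM in LiTra, 22.3 ± 12.3 in Li, 49 ± 19.3 in Tra and 28.2 ± 13.3 in Co bone (SD, n = 4 each). It was not called (LiTra against Co -0.79 ± 0.53, adjusted p = 0.365), and did not pass the filter in gingiva.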

How the data were processed

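Poly(A) RNA from bone and gingiva was sequenced. The authors deposited 1 table of estimated counts per tissue, in whole numbers. The submitters' processing notes name HISAT2 2.2.1 and StringTie 2.1.7, Trimmomatic 0.39 and FastQC 0.11.9, the GRCm39 build and DESeq2 1.32.0, with no role or settings. The use of strand in counting is not given in the sources used here. Exons of 10 members (Axin2, Fzd5, Fzd6, Lef1, Notum, Rspo3, Sfrp2, Wnt5a, Wnt7b and Wnt11) overlap a gene on the opposite strand in the GENCODE M21 annotation, so their counts can hold its reads. Columns marked CR were taken as the resin groups. Identifiers were matched to symbols and transcript lengths in that annotation, which belongs to another build (GRCm38), and 52083 of 55359 matched.

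The main test was edgeR's quasi-likelihood test (edgeR 4.0.16, R 4.3.3), with genes kept by filterByExpr (minimum count 10, minimum total 15), TMM scaling, 1 fit per tissue of 16 libraries with 1 coefficient per group, two-sided tests and Benjamini-Hochberg adjustment over all genes tested (21205 in bone, 20143 in gingiva). There were 6 comparisons per tissue. A fit of all 32 libraries (22559 genes) gave 3 comparisons between tissues. CPM were computed on TMM-scaled sizes within a tissue, and levels between genes are per kilobase of merged exons. The members, the lists and the rule for named genes were chosen with earlier results of these data known. By that rule every member is named, those called within a tissue and Axin2 and Lef1 are given per library, and up to 4 genes with the smallest p are named from each further pathway list, with Sost.

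Replicate numbers were not used to pair the samples in the main test. For same-numbered libraries of bone and gingiva, the correlation of deviations from the group means exceeded 0.1 in 1 of 16 pairs. Within a tissue it did so in 5 of 24 pairs in bone and 4 of 24 in gingiva. Different-numbered libraries were not compared in this way, so whether same-numbered libraries came from the same mouse is not known. No 2 libraries held identical values. As alternatives, TMM was replaced by the size factors of DESeq2 or by library totals, the filter was left out or made stricter (more than 1 CPM in 4 libraries), DESeq2 1.42.0 or limma-voom (limma 3.58.1, quality weights) took the place of edgeR, replicate number was added as a block, and each library was left out. Fits without 3 bone libraries and with the GC trend removed (lowess, span 0.3) were chosen after seeing the data. The fits were tested on simulated data with known changes, in which most changes of 4-fold were recovered and most of 2-fold were missed. A gene without a call may thus still have changed. The simulation gave every gene the same spread, so it does not set how large a change a given uncalled gene may hide. For a given gene the SE beside its difference is the guide. Bounds against 3 counts cover counting error only.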

Additional observations from a re-analysis of the deposited data

Results flagged for a closer look

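Of 143 groups of 4 libraries checked for a library far from the others, 7 held one, where chance gives about 1 in 20. In bone, Fzd1 in Li 4 was 165.5 CPM, with the other Li libraries at 85.2 to 92.1. Sfrp4 in bone Co 2 was 119 CPM, with the others at 69.6 to 74.1. In gingiva, Wnt3 in Li 4 was 0.156 CPM, with the other Li libraries at 0. Wnt3a in gingiva LiTra 3 was 5.71 CPM, with the others at 3.01 to 3.19, and in gingiva Li 1 it was 5.64 CPM, with the others at 4.27 to 4.47. Frzb in gingiva LiTra 2 was 2.51 CPM, with the others at 1.42 to 1.52, and in gingiva Tra 1 it was 8.82 CPM, with the others at 3.23 to 4.05.

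The effect of a treatment differed between bone and gingiva in 7 tests, a share of the members close to that of all genes. The LiTra effect was called in 6 of 49 members and 12.3% of all genes tested, and the Li effect in 1 member and 2.04%. For LiTra against Co the effect in bone minus that in gingiva was 1.95 for Wnt7b, 1.11 for Fzd1, 0.78 for Fzd8, 1.85 for Sfrp2, 1.62 for Dkk2 and 1.72 for Notum on the log2 scale. For Li against Co it was 1.77 for Dkk2. With library totals in place of TMM none of these 7 was called.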

How the results depend on the processing

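No call reversed its direction under any alternative that was run. For LiTra against Co gingiva the count of 23 members ranged over 20 to 24 without 1 library each, and the count of 22 for LiTra against Tra over 17 to 22. The bone counts moved more. For LiTra against Co bone (9 called) they were 0 with library totals alone, 5 with no filter on low counts, 15 with DESeq2 and 16 with limma-voom, and 2 (without LiTra 2) to 12 (without Tra 3) without 1 library each. For Li against Co bone (2 called) they were 0 with library totals, 1 with no filter, 8 with DESeq2, 5 with limma-voom, 1 with the GC trend removed and 1 to 3 without 1 library. For LiTra against Tra bone (1 called) they were 0 with library totals, 0 with no filter, 2 with the stricter filter, 7 with DESeq2, 5 with limma-voom, 3 without the 3 libraries led by nasal gland transcripts, and 0 to 3 without 1 library. For LiTra against Li gingiva (0 called) they were 1 with the stricter filter, 8 with DESeq2, 2 with limma-voom and 0 to 4 without 1 library, 4 being without Li 1. For Li against Co gingiva (4 called) they were 3 to 5 without 1 library. Between tissues, the Li effect (1 called) gave 0 with library totals, 0 with no filter, 2 with DESeq2 and 0 to 3 without 1 library. The LiTra effect (6 called) gave 0 with library totals, 12 with DESeq2, 15 with limma-voom and 3 to 8 without 1 library. The levels in Co (28 called) gave 25 to 30 without 1 library. The cause of these shifts was not tested. The counts of all genes called under each alternative are not set beside these or the counts below. The shifts are therefore not read as particular to the members.

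A block on the replicate number was also fitted, though whether that number pairs the libraries is not known. The counts with it were 1 for Li against Co bone and 10 for LiTra against Co bone. In gingiva they were 24 for LiTra against Co and 23 for LiTra against Tra. Between tissues they were 2 for the Li effect and 9 for the LiTra effect. With the GC trend removed, LiTra against Co gingiva gave 22 and LiTra against Tra gingiva 23. Depth limits what can be said of Wnt2, Wnt3, Wnt7a, Wnt9b, Fzd10 in bone and Dkk1 and Rspo2 in gingiva, whose libraries hold few or no counts.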
